A study of Mus musculus with 12 samples.

Results

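The platform difference in mouse embryonic fibroblasts (MEFs) was described from 3 Omni-ATAC-seq libraries, numbered 1, 2 and 4, each of which was read on both a BGI DNBSEQ-G400 and an Illumina HiSeqX10 instrument. The members were chosen by label, as all MEF samples of either platform, and gave 6 of the 12 samples of the series, 3 BGI and 3 Illumina. All 61,891 peaks of the MEF peak set of both platforms entered the comparison. The cells were MEFs of a C57/Bl6 background, without any treatment in the labels, sorted from culture by flow cytometry as THY1+. Part of the DNA of each library went to Illumina and the rest was turned into DNA nanoballs for BGI, so a library number stands for 1 ATAC reaction read by both instruments. The BGI run gave read pairs of 100 bp, and the Illumina pairs, read to 150 bp, were shortened to the same length. The comparison answers which open sites of the fibroblast genome gain or lose reads when the same library is moved from one sequencer to the other. The study's methods call the libraries biological replicates, and the labels give no animal, sex, age or passage.

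In ATAC-seq the Tn5 transposase cuts and tags DNA where chromatin is open, and reads pile up at promoters, enhancers and other regulatory sites. Many mammalian promoters, above all those of widely used genes, of developmental regulators and of chromatin factors, lie in CpG islands, stretches rich in G and C in which CpG dinucleotides have not been lost. Tissue-specific genes more often have promoters with few CpGs, and fibroblasts use many distal enhancers bound by AP-1, RUNX and TEAD factors.

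The reads counted in peaks ranged from 19,595,535 to 21,518,442 per sample, and the median count of a peak from 212 to 231. Scale factors by the trimmed mean of M values (TMM) lay between 0.9699 and 1.0200. After removal of the platform mean, both runs of a library correlated across peaks at r = 0.697, 0.618 and 0.837 for libraries 1, 2 and 4, and runs of different libraries at -0.676 to 0.298. Deviations of 3 libraries from their mean sum to 0 at each peak, so negative correlations between different libraries arise by construction. The label was checked against promoter peaks of marker genes. All 11 fibroblast markers had one, with up to 51.2 CPM (counts scaled to the reads in peaks of the sample), against 3 of 6 pluripotency markers (up to 10.7 CPM), 3 of 5 endothelial (up to 16.2 CPM), 1 of 5 macrophage, 2 of 5 epithelial, 1 of 4 muscle and 2 of 4 neural markers (up to 30.1 CPM). The part that other cells in the sort might have in the results was not tested. Both runs of a library hold the same cells.

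Sequences of promoters with opposite platform ratios are shown here, since they differ from each other at a glance. Each is the window of 150 bases with the most CpGs in its peak among those without annotated exons, so the CpG counts are the highest of each peak under this limit. The sequence is from the RefSeq assembly GRCm38.p6, plus strand, 5′ to 3′. The first 3 lie in promoter peaks that were lower on BGI (log2 ratios of BGI over Illumina of -1.26, -1.11 and -1.05). Acta2 lies in a promoter peak that was higher by much less (0.18), a call that did not hold in every fit described below. The capitals mark CpG dinucleotides. The windows of Zfp652, Egln1 and Med13l hold 31, 35 and 34 CpGs at a GC content of 82.7%, 88.7% and 86.7%, and the Acta2 window 3 CpGs at 34.7%. The Acta2 window is poorer in GC than its whole peak, which has 50% GC, whereas the whole peaks of Zfp652, Egln1 and Med13l have 81.8%, 84.4% and 79.9%.
Zfp652 promoter, chr11:95712859-95713008: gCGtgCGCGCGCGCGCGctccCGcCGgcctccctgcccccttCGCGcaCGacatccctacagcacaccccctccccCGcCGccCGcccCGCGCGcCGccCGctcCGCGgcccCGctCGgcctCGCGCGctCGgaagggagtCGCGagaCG
Egln1 promoter, chr8:124949328-124949477: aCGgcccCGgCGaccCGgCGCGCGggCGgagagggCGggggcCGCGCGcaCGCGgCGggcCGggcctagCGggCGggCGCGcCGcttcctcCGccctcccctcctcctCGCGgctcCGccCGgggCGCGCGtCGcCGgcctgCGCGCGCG
Med13l promoter, chr5:118560140-118560289: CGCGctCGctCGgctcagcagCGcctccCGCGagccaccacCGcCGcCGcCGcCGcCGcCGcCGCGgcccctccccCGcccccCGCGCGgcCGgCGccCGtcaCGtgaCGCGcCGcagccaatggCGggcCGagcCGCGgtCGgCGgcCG
Acta2 promoter, chr19:34255110-34255259: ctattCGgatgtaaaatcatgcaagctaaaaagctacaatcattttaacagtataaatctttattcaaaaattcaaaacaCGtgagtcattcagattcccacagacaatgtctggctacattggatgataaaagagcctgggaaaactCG

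Most of the platform difference was small, and its large values were promoters with lower BGI counts. The ratio throughout is BGI over Illumina on a log2 scale, from TMM-normalized counts in edgeR's quasi-likelihood fit with library as a block. Of 61,891 peaks tested, 9471 (15.3%) were called lower and 8604 (13.9%) higher on BGI at a Benjamini-Hochberg adjusted p under 0.05, which is 29.2% in either direction. The platforms' CPM did not overlap at 13,538 peaks (21.9%), of which 8328 were lower and 5210 higher on BGI. The median log2 ratio was 0.07, the median of its absolute value 0.16 and the 5th and 95th percentiles -0.43 and 0.35. A ratio of at least 0.5 in size was found at 2545 peaks, and all of these were called. Of the 2139 lower ones 2019 were promoter peaks, against 23 of the 406 higher ones. At a size of at least 1 there were 60 lower peaks, all in promoters, and 3 higher peaks.

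These counts depended on the pairing of libraries, the tool, the GC offset and the number of libraries. With the same pairing, DESeq2 called 5607 peaks lower and 797 higher, and edgeR with the GC offset 3995 and 3892. Without the block, edgeR called 2448 peaks lower, 2364 of them promoters, and 66 higher, and all 2514 were also called with it. Without library 1 the paired fit called 7702 lower and 3477 higher, without library 2 it called 7439 and 3584, and without library 4 it called 10,708 and 4514. The sign was the same in all 3 libraries at 56.4% of peaks, and the median ratio was 0.08 in library 1, 0.07 in library 2 and 0.00 in library 4. Across the 61,891 peaks the ratios of libraries 1 and 2 correlated at r = 0.644, those of 1 and 4 at 0.588 and those of 2 and 4 at 0.587. These are descriptions across peaks, and the 3 ratios share their normalization and the base composition of the peaks.

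Promoters carried most of the lower calls and distal sites most of the higher ones. Promoter peaks, those centred no further than 1 kb from a GENCODE transcription start site (TSS), made up 23,026 of the peaks. Of these, 8642 (37.5%) were called lower and 1465 (6.36%) higher, with a median log2 ratio of -0.10. The median over promoter peaks was -0.09, -0.10 and -0.15 in libraries 1, 2 and 4. Among 19,705 intronic peaks 308 were lower and 3668 (18.6%) higher, and among 16,855 intergenic peaks 296 were lower and 3142 (18.6%) higher, both at a median of 0.13. The 2305 exonic peaks lay between, with 225 lower, 329 higher and a median of 0.09. Compared with all peaks (15.3% lower, 13.9% higher), lower calls were 37.5% in promoters and 2.13% elsewhere. GC content moved with this division, at a median of 60.6% in promoter peaks and 48.02% in the others. With an offset for GC content the median ratio was -0.02 in promoter peaks and 0.02 in the others.

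Promoters differed from each other by CpG class, and GC content moved with the class. High-CpG promoters (an observed to expected CpG ratio of at least 0.75 and a GC content of at least 55%) had 6204 of 9178 peaks called lower (67.6%), at a median ratio of -0.27 and a median GC content of 66.9%. Intermediate promoters had 2104 of 7708 (27.3%), at -0.08. In low-CpG promoters (a ratio under 0.48) the balance was the other way, with 332 of 6134 lower (5.41%), 802 higher (13.1%) and a median of 0.06 at 52.1% GC. With the GC offset the medians of the high and the low class were both -0.01. Away from promoters, the 579 peaks of the high-CpG class had 353 called lower (61.0%) at a median of -0.28, close to the high-CpG promoters, while the 35,017 low-CpG peaks had 227 lower (0.648%) and 6804 higher (19.4%).

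By gene type, 40.04% of 19,762 peaks at protein-coding TSSs were called lower, against 14.0% of 989 at lincRNA TSSs, 30.6% of 733 at antisense RNAs, 25% of 196 at microRNAs, 15.8% of 209 at processed pseudogenes and 8.75% of 80 at snRNAs. The 79 peaks of lncRNAs annotated as sharing a bidirectional promoter were lower in 53.2%, and their GC content of 64.7% was above the 61.4% of protein-coding promoters. The medians followed, from -0.23 in this class and -0.12 in protein-coding promoters to 0.05 in lincRNA and 0.08 in processed pseudogene promoters. Bidirectional protein-coding promoters, where TSSs of both strands diverge within 1 kb, were lower in 42.1% of 1638 peaks and the other protein-coding promoters in 39.9% of 18,124, with medians of -0.13 and -0.12. Promoters with TATAAA 20 to 40 bases upstream of the TSS numbered 167, and 29.9% were lower against 40.1% of those without it. Promoter peaks that overlapped an mESC peak by at least 50% were lower in 41.4% of 17,801, and those without any overlap in 18.1% of 4192, with GC contents of 62.3% and 51.6%. Peaks with a smaller overlap were in neither class. After correction by GC decile the order of the medians turned, with -0.01 and -0.09.

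The ratio was lower at higher GC content, and most so in the GC-richest peaks. In deciles of all peaks by GC content, the median was 0.15 in the lowest decile (27.1% to 42.0% GC), 0.10 in the sixth, -0.02 in the eighth, -0.15 in the ninth and -0.37 in the highest (66.5% to 86.7% GC). The share called lower was 0.469% in the lowest decile and 84.0% in the highest. Across 61,846 peaks with a reference sequence, the log2 ratio correlated with GC content at r = -0.674 and with the observed to expected CpG ratio at r = -0.646, as descriptions without a test. In the highest decile, promoter and other peaks had nearly the same median, -0.37 and -0.35. In the lowest decile they were 0.10 and 0.15, and in every decile the median of promoter peaks was the lower of the pair.

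**Figure D1:**
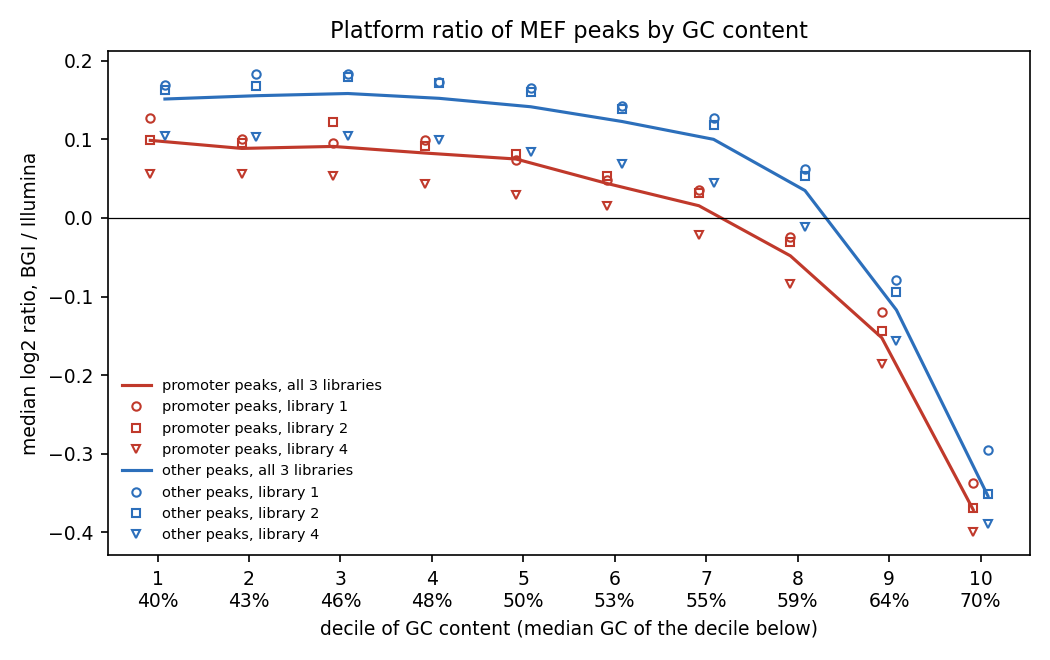
Median log2 ratio of BGI over Illumina counts in promoter peaks (red) and other peaks (blue) by decile of GC content, with lines for the fit of all 3 libraries and markers for single libraries. Both lines fall below 0 in the highest deciles, to -0.37 and -0.35, and the red line is the lower one in all 10 deciles.

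Within bands of GC content the ratio differed by CpG content in GC-rich peaks and not visibly in GC-poor ones. Under 40% GC the medians of 6 CpG levels lay between 0.13 and 0.15 without order. Among peaks with 60% to 65% GC, the median was -0.02 where the observed to expected CpG ratio was 0.2 to 0.35, with 11.2% of 278 peaks lower, and -0.19 where it was 0.9 or more, with 57.3% of 794 peaks lower. Between 50% and 55% GC the medians at the same CpG levels were 0.12 and -0.01. At 75% GC or more with a CpG ratio of 0.9 or more, 695 of 698 peaks (99.6%) were called lower and the median was -0.64. CpG content, GC content and peak height move together in these classes, and their separate parts were not tested.

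Peaks with and without short sequence motifs differed too, and so did their GC content. A GGGCGG box on either strand, the core of SP and KLF factor sites, was in 15,150 of 23,020 promoter peaks with a sequence, and 48.7% of these were called lower against 15.97% of promoters without it. GC content was 63.9% with the box and 53.4% without, and after correction by GC decile the order of the medians turned, with -0.02 and -0.05. CCAAT, bound by NFY, was in 10,219 promoter peaks, of which 28.5% were lower against 44.7% without it. GC content was 59.1% with CCAAT and 61.9% without, and after correction by GC decile the medians kept their order, with -0.01 and -0.05. Runs of at least 4 CGG units (or CCG, on the other strand) were in 991 promoter peaks, and 83.1% of them were lower at a median of -0.42. Away from promoters, the AP-1 site TGANTCA was in 15,023 of 38,826 peaks, and 23.1% of these were higher on BGI against 15.4% of the others. Their medians were 0.15 and 0.12 (0.03 and 0.01 after correction by GC decile) and their GC contents 46.7% and 49.0%. A match is a letter pattern in the peak and says nothing of binding.

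The lower peaks with the strongest evidence were GC-rich promoters of genes with various roles. By the naming rule, which took only peaks without overlap of the platforms, the 10 called peaks with the lowest p-values were promoter peaks of Zfp652, Med13l, Cnnm3, Cdk9, Dpy19l1, Egln1, Ranbp9, Rybp, Atxn7l3 and Tlk1, with GC contents from 74.2% to 84.4% and log2 ratios from -1.26 to -0.90. All 10 were also called without the block, and 9 of 10 with the GC offset, under which the ratios were smaller in size, from -0.58 at Cnnm3 to -0.12 at Rybp. With it Zfp652 was at -0.48, Med13l at -0.34, Cdk9 at -0.26 and Egln1 at -0.22. Zfp652 (a zinc finger repressor; chr11:95712752-95713299) had 13.9, 15.4 and 16.3 CPM on BGI in libraries 1, 2 and 4 and 34.9, 35.6 and 38.7 CPM on Illumina. Every Illumina sample was above every BGI sample, with a log2 ratio of -1.26 ± 0.07 (SE; edgeR adjusted p = 3.31e-24). Med13l (a subunit of the kinase module of Mediator; chr5:118559889-118560405) had 23.7, 19.8 and 27.1 CPM on BGI and 45.1, 45.5 and 55.9 CPM on Illumina, at -1.05 ± 0.06 (adjusted p = 7.86e-23). That all BGI values lay below all Illumina values at these peaks follows from the naming rule. Cdk9, the kinase that releases paused RNA polymerase II (chr2:32712881-32713382), had 31.4, 30.3 and 33.3 CPM on BGI and 58.3, 58.7 and 62.1 CPM on Illumina, at -0.91 ± 0.05. Egln1, the oxygen-dependent prolyl hydroxylase that marks HIF-1α for degradation (chr8:124949022-124949648), had 16.7, 17.2 and 16.3 CPM on BGI and 35.5, 32.8 and 40.2 CPM on Illumina, at -1.11 ± 0.07. Its 3 BGI values lay within 1 CPM of each other, less than the spread of the Illumina values.

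Of the others, Rybp, a subunit of variant Polycomb repressive complex 1, had a log2 ratio of -0.90 ± 0.06, and was the peak of the 10 that was not called with the GC offset (adjusted p = 0.142). Atxn7l3, of the deubiquitinase module of SAGA, had -0.90 ± 0.06, and Tlk1, a kinase that acts on the histone chaperone Asf1, had -0.95 ± 0.06. Ranbp9, a scaffold of the CTLH ubiquitin ligase, had -1.02 ± 0.07, Dpy19l1, of the C-mannosyltransferase family, -0.95 ± 0.06 and Cnnm3, of the cyclin M family linked to magnesium transport, -1.08 ± 0.06. The largest ratios among called, non-overlapping peaks of at least 5 CPM were found at lower counts. The Zbtb10 promoter (a zinc finger factor) had 4.31, 3.45 and 5.30 CPM on BGI and 13.1, 11.9 and 15.8 CPM on Illumina, a ratio of -1.64 ± 0.11, so that the BGI counts were 3.12-fold lower. Others of this set, not given in full, were Samd1, a reader of unmethylated CpG islands, at -1.39 ± 0.10 and Hmgb3, an HMG-box chromatin protein, at -1.37 ± 0.11. Tcf20, a transcriptional coregulator with 85.9% GC, was at -1.32 ± 0.11. With the GC offset these 4 peaks were at -0.94, -0.62, -0.84 and -0.38.

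Peaks higher on BGI were rarer at large size, and most of the strongest lay away from promoters. By the same rule, the 10 with the lowest p-values had log2 ratios from 0.51 to 1.93 and GC contents from 40.04% to 67.7%, and 2 of them were promoter peaks. Soft-masked repeat sequence made up 24.7% to 77.7% of their bases. The GC offset kept all 10 calls, and 8 were called without the block. The first, in an intron of Rarb (the retinoic acid receptor beta gene), had 53.7, 59.4 and 48.4 CPM on BGI and 27.9, 34.1 and 26.3 CPM on Illumina, at 0.87 ± 0.06 (SE; edgeR adjusted p = 1.58e-20). The peak with the largest ratio of the table lay in intergenic sequence near the snoRNA gene Gm22011 and had 8.75, 8.68 and 6.90 CPM on BGI and 2.50, 2.13 and 1.73 CPM on Illumina, 3.82-fold higher on BGI at 1.93 ± 0.15 (adjusted p = 7.08e-17). BGI samples were higher in every library at both sites. A peak in an intron of Dgat2 (triglyceride synthesis) had 29.7, 35.4 and 35.2 CPM on BGI and 16.96, 19.995 and 20.1 CPM on Illumina, at 0.81 ± 0.06. A peak near Poll (DNA polymerase lambda) had 46.3, 42.3 and 38.6 CPM on BGI and 27.02, 26.4 and 24.5 CPM on Illumina, at 0.71 ± 0.06. That all BGI values lay above all Illumina values at these peaks follows from the naming rule.

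The remaining higher peaks lay in introns of Plekha2 (a phosphoinositide-binding adaptor; 0.57 ± 0.06), Acvrl1 (the type I receptor ALK1 for BMP9; 0.62 ± 0.08) and the lincRNA Gm11290 (1.03 ± 0.13), near the pseudogene Gm7239 (0.63 ± 0.07) and at the promoters of Gng2 (a G protein gamma subunit; 0.51 ± 0.05) and the lincRNA Gm45164 (0.97 ± 0.13). The calls at Plekha2 (adjusted p = 0.103) and Gm7239 (adjusted p = 0.0886) were the ones lost without the block.

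Perfect tandem runs of at least 20 bases with a unit of 1 to 6 bases were also counted in all peaks, a class added after the data had been seen. Some of the units are given here, without a ranking. AGAT (40 peaks, 32.5% higher, median 0.21) and AT (54 peaks, 24.1% higher, 0.20) were above the median of all peaks. Low ratios were found for the units AGCG (25 peaks, 84.0% lower, median -0.52), CCG (157 peaks, 83.4% lower, -0.43) and CCCG (53 peaks, 66.0% lower, -0.36), all of which contain CpG. Runs of A (801 peaks) and of the dinucleotide AC (2148 peaks) had medians of 0.08 and 0.09, near the 0.07 of all peaks. Alignment in such repeats depends on read and fragment length, and its part was not tested.

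**Figure D2:**
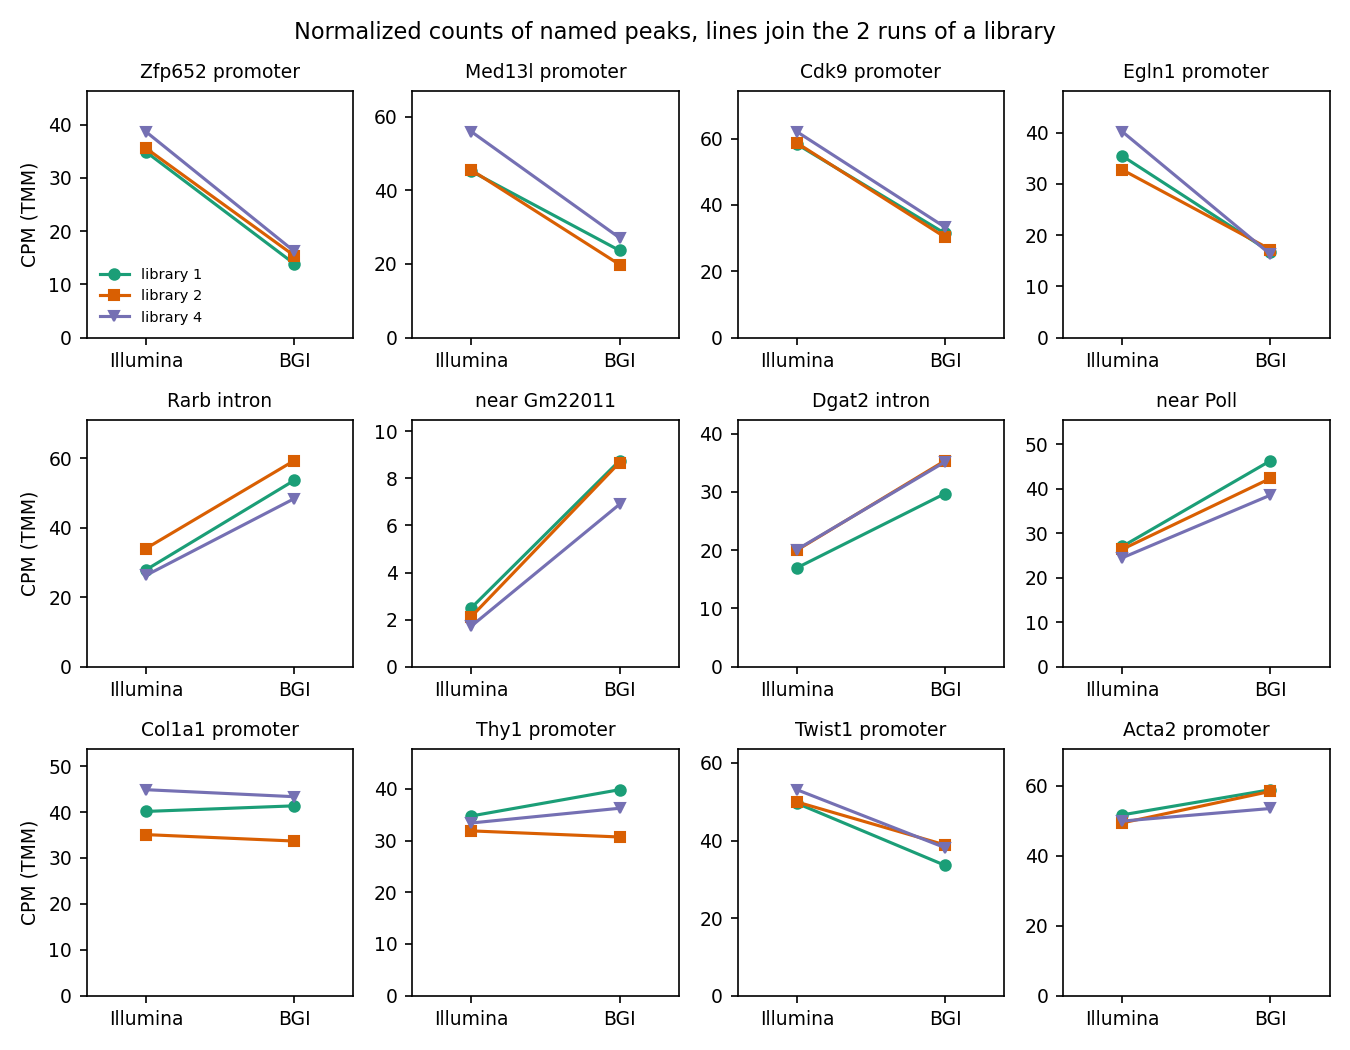
TMM-normalized CPM of 12 named peaks on Illumina and BGI, with a line for each of libraries 1, 2 and 4. The 4 GC-rich promoters of the top row fall in all 3 libraries, the 4 distal peaks of the middle row rise in all 3, and of the fibroblast promoters in the bottom row Twist1 falls, Acta2 rises and the lines of Col1a1 and Thy1 differ in direction between libraries.

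The ratio also depended on the size of a peak beside its neighbours, a division added after the data had been seen. Each peak's mean CPM was set against that of the highest other peak within 1.5 kb. Promoter peaks under 1/4 of their neighbour's size (1255 peaks) had 43.3% called lower and a median of -0.21, although their median GC content was 54.8%, below that of promoters in general. Promoter peaks over 4 times their neighbour (1026) had a median of -0.06 at 64.6% GC, and those with no neighbour (11,097) had 26.8% lower and a median of -0.03. With the median of the peak's GC decile taken off, the medians from under 1/4 to over 4 were -0.24, -0.20, -0.12, -0.05, 0.01 and 0.09, and 0.02 without a neighbour. Away from promoters the uncorrected medians ran from near 0 (445 peaks under 1/4) to 0.10 (168 peaks over 4), and were 0.15 without a neighbour (31,335 peaks, 1.09% lower).

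The same order was seen among promoters of like GC content. In the highest GC decile, the median was -0.63 under 1/4 and -0.22 over 4, and in the sixth decile it was -0.14 and 0.10. In each of the 3 libraries the smallest promoter peaks of both deciles were below the largest. Position gave a similar picture. Along protein-coding genes, a peak centred within 100 bp of the TSS had a median of -0.11 (0.01 after GC correction), one 250 to 500 bp downstream -0.25 (-0.13 after correction, with 52.5% of 1577 peaks lower) and one 500 to 1000 bp downstream -0.14 (-0.12). On the upstream side the medians were -0.10 (-0.06) at 250 to 500 bp and -0.03 (-0.09) at 500 to 1000 bp. Peak size, distance and GC content move together here, and their separate parts were not tested.

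**Figure D3:**
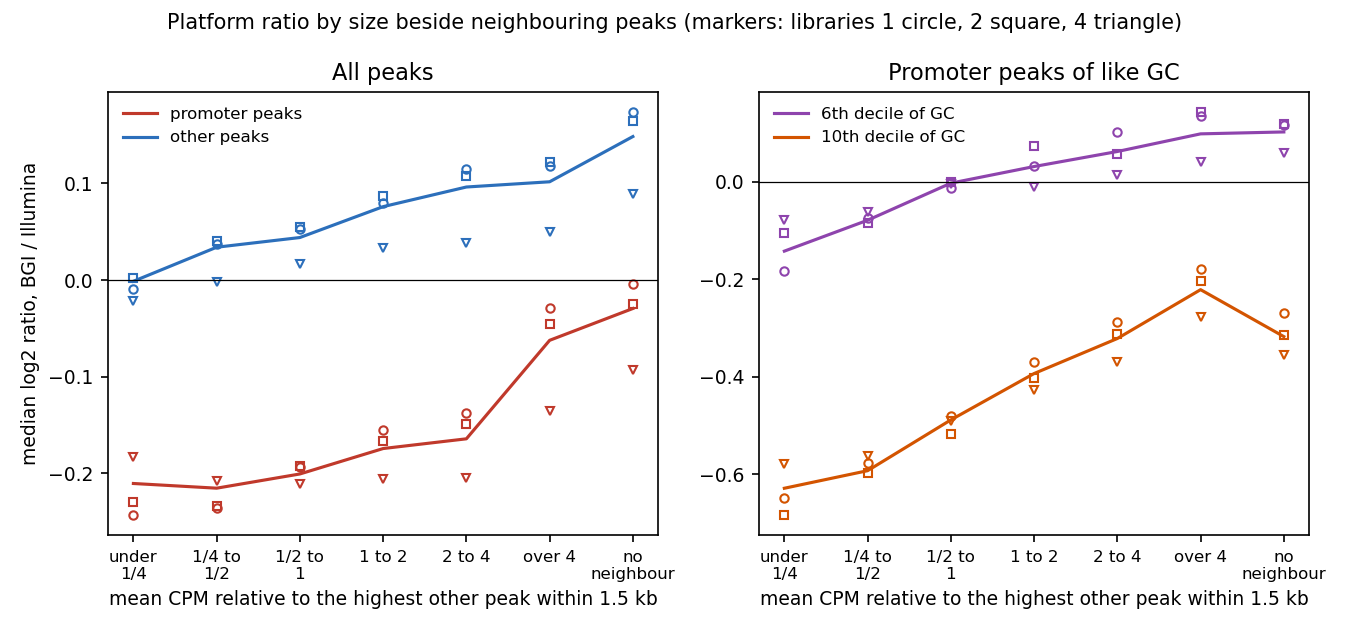
Median log2 ratio of BGI over Illumina by mean CPM relative to the highest other peak within 1.5 kb, for promoter and other peaks (left) and for promoter peaks of the sixth and highest GC deciles (right); lines are the fit of all 3 libraries and markers single libraries. Values rise from small peaks beside a larger one to large peaks beside a smaller one, from -0.63 to -0.22 in the highest GC decile and from -0.14 to 0.10 in the sixth.

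Gene groups ranged from 23.9% to 69.1% in the share of promoter peaks called lower on BGI. Promoter peaks of 28 gene lists were counted beside all promoter peaks (37.5% lower, 6.36% higher, median -0.10), and no difference between lists was tested. Chromatin modifiers, the Polycomb, trithorax, acetyltransferase, deacetylase, SWI/SNF and cohesin genes, had 65 of 94 promoter peaks lower and 1 higher (median -0.37), the lowest median of all lists at a GC content of 69.3%. Next were developmental factors of the Sox, Fox, Pax, Tbx, Gata and sine oculis families with 82 of 142 promoter peaks lower and 5 higher (median -0.24), and the Wnt pathway with 35 of 62 promoter peaks lower and 0 higher (median -0.24). Cell cycle genes had 37 of 63 promoter peaks lower and 2 higher (median -0.22), stress and immediate early genes 32 of 52 promoter peaks lower and 0 higher (median -0.19) and Hox genes 20 of 50 promoter peaks lower and 1 higher (median -0.19). The median nearest 0 of the 28 was that of NADH dehydrogenase subunits, which had 14 of 42 promoter peaks lower and 3 higher (median -0.04). Proteasome subunits had 11 of 46 promoter peaks lower and 2 higher (median -0.06) and cytosolic ribosomal proteins 28 of 100 promoter peaks lower and 2 higher (median -0.08). The shares called lower of the Hox genes (40%) and the NADH dehydrogenase subunits (33.3%) were near that of all promoters. All 28 medians were below 0. With the GC offset those of matrix proteases (0.03) and solute carriers (0.00279) were above 0, and that of the chromatin modifiers was -0.04.

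The replication-dependent histones stood out from this order. Their 72 promoter peaks had a median of -0.11, close to all promoters, but at a GC content of 50.9%, where promoter peaks of the same GC decile had a median of 0.08. After correction by GC decile it was -0.22, the lowest of the 28 lists, and with the GC offset -0.21. Of these peaks 36 (50%) were smaller than another peak within 1.5 kb, against 27.5% of all promoter peaks. The share was as high in the AP-1, TEAD, RUNX and C/EBP list (50%) and in housekeeping genes (51.0%), whose corrected medians were -0.08 and -0.06. Histone genes exist in near-identical copies, so reads may be shared or lost between them and single values are uncertain. A promoter peak of Hist1h4h had 15.2, 13.04 and 15.7 CPM on BGI and 23.5, 19.5 and 20.97 CPM on Illumina, at -0.54 ± 0.08 with 55.9% GC. The highest of this gene's 3 promoter peaks, with 44.5% GC, was at 0.13 ± 0.06 and was not called (edgeR adjusted p = 0.115). Hist2h2aa1 was at -0.57 ± 0.09 with 53.3% GC. The peak shared by Hist1h2bh and Hist1h3f, with 43.2% GC, was called higher at 0.19 ± 0.06.

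**Figure D4:**
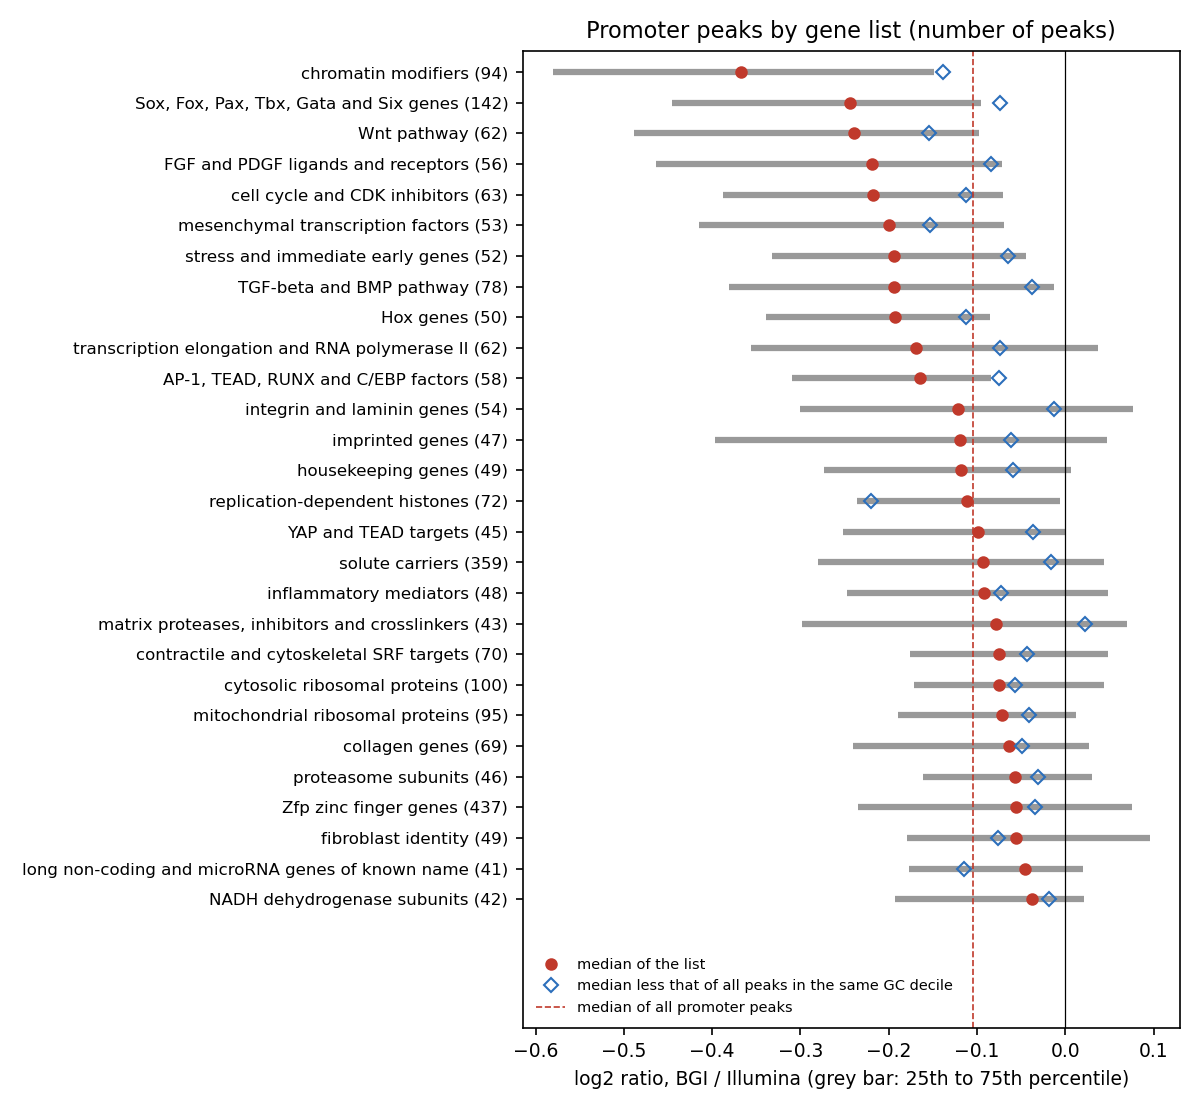
Median log2 ratio of BGI over Illumina (red circles) with the 25th to 75th percentile (grey bars) for promoter peaks of 28 gene lists, ordered by median, and the median after subtraction of that of the same GC decile (blue diamonds). Chromatin modifiers have the lowest median at -0.37, and the replication-dependent histones have the lowest corrected median at -0.22.

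From the signalling lists, promoters are given that were named for their low p-values, not for the size of the ratio. Fzd7, a Wnt receptor, had 5.58, 7.15 and 10.3 CPM on BGI and 13.8, 13.02 and 16.4 CPM on Illumina at -0.93 ± 0.10, and β-catenin (Ctnnb1), the effector of the pathway, was at -0.71 ± 0.07. The Ctnnb1 ratio was 0.00283 with the GC offset, and no longer called. Bmpr1a, a BMP receptor, was at -0.80 ± 0.06, and Skil, an inhibitor of SMAD signalling, had 42.9, 45.1 and 46.2 CPM on BGI and 69.5, 72.9 and 75.5 CPM on Illumina at -0.70 ± 0.05. With the GC offset Skil was at 0.05. Among FGF feedback inhibitors Spry1 was at -1.04 ± 0.11 and Spry2 at -0.61 ± 0.05. The platforms did not overlap at any of these 6 peaks. Inflammatory genes went both ways: Nfkb1, a subunit of NF-κB, had a ratio of -0.93 ± 0.08 at 78.6% GC, while the interleukin-1 receptor Il1r1 (0.27 ± 0.07, 48.3% GC) and the adhesion molecule Vcam1 (0.32 ± 0.08, 42.0% GC) were called higher, though not with the GC offset or with DESeq2.

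Promoter peaks were called lower in 58.7% for cell cycle genes, 69.1% for chromatin modifiers and 46.8% for transcription elongation and RNA polymerase II, against 37.5% of all promoters. E2f1, which drives S phase genes, had 22.8, 20.8 and 24.1 CPM on BGI and 39.6, 38.2 and 41.8 CPM on Illumina at -0.82 ± 0.06. Ccne2 (cyclin E2) had 67.4, 63.6 and 67.3 CPM on BGI and 99.3, 99.8 and 103 CPM on Illumina at -0.61 ± 0.05. The CDK inhibitor Cdkn2d, a still higher peak, had 156, 147 and 137 CPM on BGI and 133, 136 and 134 CPM on Illumina and was called higher at 0.13 ± 0.04. DESeq2 with the block did not call it (adjusted p = 0.0867). Its GC content of 65.5% was below the 75.1% of Ccne2. Arid1b and Arid2, subunits of the BAF and PBAF remodellers, were at -0.91 ± 0.07 and -0.76 ± 0.06, and Aff1, a scaffold of the super elongation complex, was at -0.72 ± 0.06. Among ribosomal protein genes a lower peak was that of Rpl10a (-0.60 ± 0.10), which had 9.32, 6.44 and 6.75 CPM on BGI and lay beside a larger peak. The calls at Ccne2 and Aff1 were lost with the GC offset. The proteasome gene Psmb3 (0.29 ± 0.05) and the non-muscle myosin gene Myh10 (0.17 ± 0.04) were called higher.

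Lists of transcription factors lay on both sides of the share of all promoters, from 32.7% of the Zfp zinc finger genes to 57.7% of the Sox, Fox, Pax, Tbx, Gata and sine oculis families. The AP-1, TEAD, RUNX and C/EBP list, whose proteins bind fibroblast enhancers, had 28 of 58 promoter peaks lower and 0 higher (median -0.16), a share of 48.3% lower. Cebpb was at -0.71 ± 0.06 and Tead1 at -0.67 ± 0.08, while Fosl2, the highest promoter of the list, had 91.1, 82.4 and 87.7 CPM on BGI and 93.995, 82.4 and 96.8 CPM on Illumina, which overlapped, at -0.06 ± 0.05 (edgeR adjusted p = 0.314; 0.26 with the GC offset). Of YAP and TEAD targets Crim1 was lower (-0.77 ± 0.07, 72.9% GC) and Ankrd1 higher (0.34 ± 0.07, 52.3% GC). Hoxd8 (-0.73 ± 0.09), Sox12 (-0.77 ± 0.06) and Foxk2 (-0.70 ± 0.06; 0.04 with the GC offset) were called lower, as was the promoter of the let-7 precursor Mirlet7i (-0.80 ± 0.05). Cebpb, Hoxd8 and Mirlet7i were not called with the GC offset. Zfp142, of the zinc finger family, was called higher at 0.26 ± 0.05.

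Promoters of fibroblast identity genes were called lower less often than 37.5%, at a lower GC content than promoters in general. All 24 genes had promoter peaks, 49 in total, of which 12 (24.5%) were lower and 3 higher, with a median ratio of -0.06 at 54.4% GC, against -0.10 at 60.6% GC for all promoters. After correction by GC decile the order turned, with -0.08 for the list and -0.03 for all promoters. The difference was not tested. With only the highest peak of each gene the median was 0.10, and with a TSS window of 500 bp it was 0.02, so the sign of this list rests on its smaller peaks. Of the list, 20 peaks (40.8%) were smaller than another peak within 1.5 kb. Thy1, the marker used to sort the cells, had 39.8, 30.7 and 36.3 CPM on BGI and 34.8, 31.9 and 33.4 CPM on Illumina at its main promoter peak (chr9:44043101-44043602). The samples overlapped and the ratio was 0.09 ± 0.06 (SE; edgeR adjusted p = 0.235). Col1a1, which encodes the alpha 1 chain of type I collagen, had 41.4, 33.7 and 43.4 CPM on BGI and 40.1, 35.1 and 44.9 CPM on Illumina at -0.02 ± 0.06 (adjusted p = 0.808). Fibronectin (Fn1, -0.04), Col3a1 (-0.01), Pdgfra (-0.04), decorin (Dcn, -0.11), Col1a2 (0.11), Tagln (0.11) and Sparc (0.13, adjusted p = 0.0531) also missed the threshold.

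Among the main promoter peaks of the list named here, 3 were called lower. Col5a1, of type V collagen and 70.6% GC (chr2:27886045-27886564), had 50.1, 49.4 and 55.7 CPM on BGI and 64.1, 59.4 and 68.8 CPM on Illumina, at -0.31 ± 0.05 (edgeR adjusted p = 1.1e-06). Fibrillin 1 (Fbn1) was at -0.24 ± 0.05 and vimentin (Vim) at -0.15 ± 0.05. Called higher were smooth muscle actin (Acta2; chr19:34255102-34255659), with 58.8, 58.3 and 53.5 CPM on BGI and 51.6, 49.3 and 49.9 CPM on Illumina at 0.18 ± 0.05 (adjusted p = 0.00628) and the PDGF receptor gene Pdgfrb (0.15 ± 0.05). The platforms did not overlap at Col5a1 or Acta2. With the GC offset Col5a1 was at 0.06 and Acta2 at 0.05, and of these 5 peaks Pdgfrb alone was called. None of these 5 calls held without the block, where the adjusted p ran from 0.0503 at Col5a1 to 0.264 at Pdgfrb. DESeq2 with the block called Col5a1 and Fbn1 alone among them.

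Promoters of mesenchymal transcription factors, which direct the mesodermal and fibroblast programme, were called lower about as often as all promoters (39.6% against 37.5%). Their 53 promoter peaks had 21 lower, 3 higher and a median of -0.20 at 59.5% GC, against -0.06 at 54.4% GC for fibroblast identity and -0.06 for collagen genes. The difference between the lists was not tested. Twist1, a bHLH factor of the mesoderm (chr12:33957354-33957909), had 33.6, 38.9 and 38.2 CPM on BGI and 49.6, 49.9 and 53.1 CPM on Illumina, with no overlap, at -0.47 ± 0.05 (edgeR adjusted p = 1.58e-10). Zeb2 was at -0.36 ± 0.08 with 57.7% GC, Foxc1 at -0.35 ± 0.06, Nfib at -0.32 ± 0.06 and Twist2 at -0.22 ± 0.06, which was 0.05 with the GC offset. Tbx18 (0.27 ± 0.07) and Meox1 (0.29 ± 0.08), with 50.9% and 50.7% GC, were called higher. Prrx1 (0.04 ± 0.08) and Snai1 (-0.07 ± 0.05) were not called. Of these calls only Twist1's held without the block (adjusted p = 0.0118), and only Zeb2's with the GC offset (adjusted p = 0.000155).

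In the fibroblast loci most lower calls were promoter peaks and most higher calls were not. The gene bodies of the 24 identity genes with 10 kb on either side held 200 peaks, 15 lower and 18 higher, with a median of 0.05. The 61 promoter peaks among them had 12 lower and 3 higher (median -0.04), and the 139 others 3 lower and 15 higher (median 0.09). The promoter peaks were thus lower in 19.7%, against 37.5% of all promoter peaks, and the others higher in 10.8%, against 18.4% of all peaks away from promoters. After correction by GC decile both medians were below 0, at -0.06 and -0.04. At Acta2, the main promoter peak was called higher, while a smaller peak centred 377 bp from the TSS (chr19:34254334-34254880) had 11.6, 9.13 and 11.7 CPM on BGI and 12.5, 12.1 and 15.9 CPM on Illumina and was called lower at -0.32 ± 0.09 (edgeR adjusted p = 0.00598). The smaller peak had 49.4% GC, within 1 point of the main peak. At Sparc, a matricellular glycoprotein, the main peak was at 0.13 and an intronic peak 1069 bp from the TSS at -0.36 ± 0.10 (adjusted p = 0.00436), with 47.4% GC. At Col1a2 the pair was 0.11 and -0.30 ± 0.10, at Vim -0.15 and -0.31 ± 0.09, at Col5a1 -0.31 and -0.43 ± 0.07 and at Fbn1 -0.24 and -0.50 ± 0.09, and the smaller peak of each pair was called lower. Like the Col1a1 and Thy1 peaks that follow, these smaller peaks were named as the lowest ratio of their locus, so their place below the main peak comes from the choice and is a description only. An intronic Col1a1 peak (chr11:94949268-94949769) was also lower (-0.35 ± 0.10), whereas the small promoter peak of Thy1 was not called (-0.25 ± 0.15, adjusted p = 0.194). A peak 1099 bp from the Tagln TSS, also smaller than its neighbour, went the other way and was called higher at 0.21 ± 0.08 (adjusted p = 0.0358).

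Of the 18 higher calls in these loci 15 were away from promoters. Those given here were named as the highest ratio of their locus. In the Thy1 locus, a peak in an intron of the neighbouring lincRNA Gm39323 (chr9:44039711-44040217) had 24.6, 19.6 and 17.4 CPM on BGI and 18.2, 18.2 and 14.6 CPM on Illumina, at 0.27 ± 0.08 (edgeR adjusted p = 0.00443). BGI was higher in each library, but the groups overlapped. Intronic peaks of Col5a1 (0.35 ± 0.09), Fbn1 (0.38 ± 0.12) and Dcn (0.37 ± 0.12), a peak downstream of Sparc (0.24 ± 0.07) and one downstream of Pdgfrb (0.34 ± 0.09) were called higher too. Their GC contents ran from 41.2% at Fbn1 to 58.5% at Col5a1, and none of the 6 distal calls or of the smaller peaks above held without the block. With the GC offset, of the 6 distal peaks Col5a1 alone was called (adjusted p = 0.00217), while the smaller peaks of Acta2 (adjusted p = 0.000155) and Sparc (adjusted p = 0.00012) were called as well. DESeq2 with the block did not call the smaller peaks of Acta2, Sparc, Col1a2, Vim and Col1a1, nor the distal peaks of Thy1, Col5a1, Sparc and Pdgfrb.

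**Figure D5:**
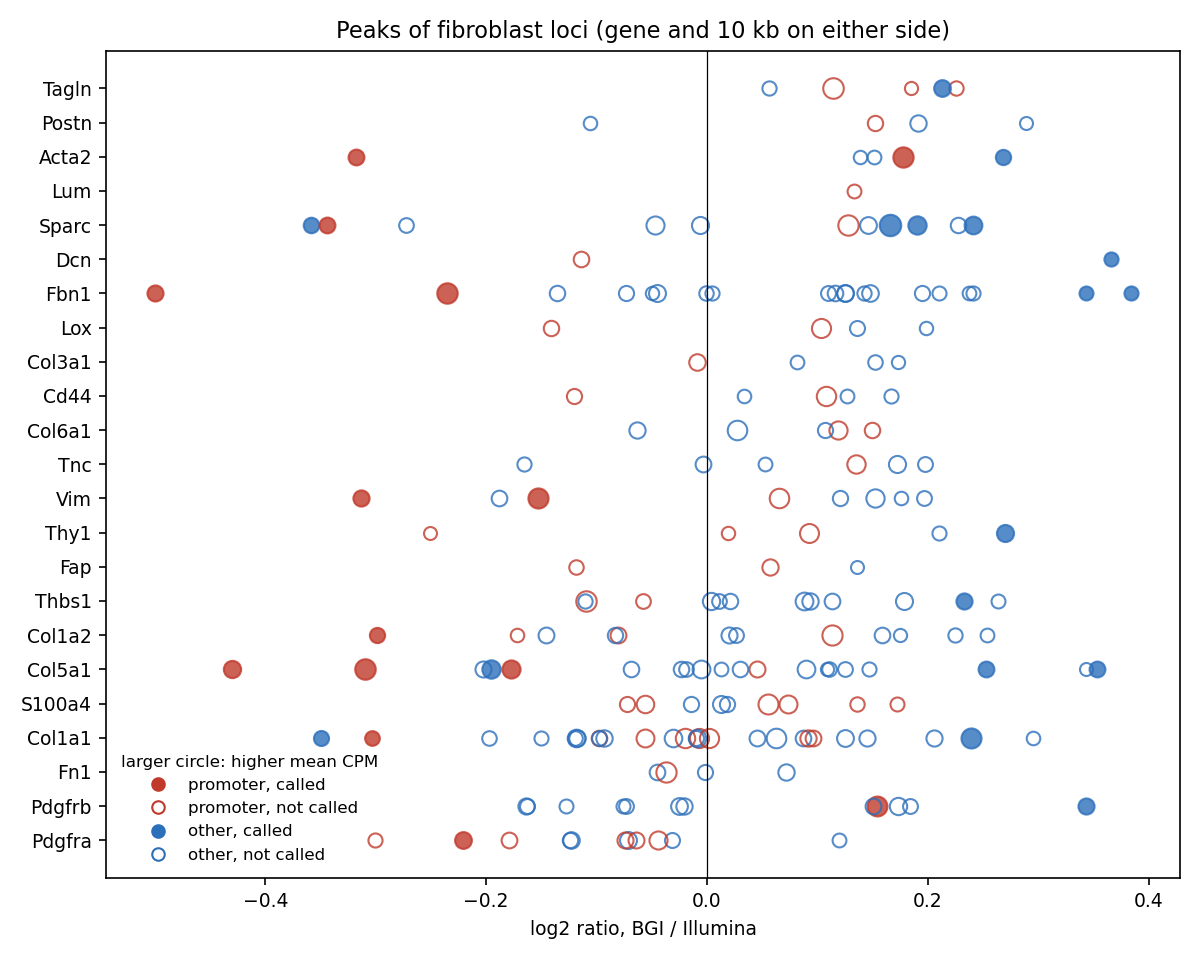
Log2 ratio of BGI over Illumina for the 195 peaks in 23 of the 24 fibroblast loci (the gene and 10 kb on either side), promoter peaks in red and others in blue, filled where called at an adjusted p under 0.05 and larger with mean CPM. Called promoter peaks lie mainly on the left (12 lower, 2 higher) and called distal peaks on the right (3 lower, 14 higher).

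The called intervals were narrower on BGI in promoter peaks and other peaks alike. The interval called by MACS2 that holds a promoter peak had a median width of 1674, 1658 and 1799 bp on BGI in libraries 1, 2 and 4 and of 1787, 1764 and 1863 bp on Illumina. These medians differed by -113, -106 and -64 bp. Other peaks had narrower intervals (824, 793 and 838 bp on BGI, 872, 848 and 859 bp on Illumina), which differed by -48, -55 and -21 bp. Low-CpG promoters, with more higher than lower calls, differed by -108, -129 and -78 bp, and high-CpG promoters by -123, -116 and -43 bp. BGI was narrower in 3 of 3 libraries for each of these classes, and no test was run on so few differences. As a check of the columns, the count ratio of a peak correlated with the ratio of its fold enrichment at the summit, at a Spearman rho of 0.805, 0.817 and 0.797 in the 3 libraries.

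The platform ratio was then set beside that of mouse embryonic stem cell (mESC) libraries, sorted as THY1-/SSEA1+/EPCAM+, numbered 1, 3 and 5 and read on the same platforms. At 30,661 MEF peaks that overlapped an mESC peak by at least 50%, the ratios of both cell types correlated at r = 0.829 and rho = 0.796 across peaks, with the same sign at 81.8%. Of 7872 matched peaks called lower in MEFs, 7549 were below 0 in mESCs, and of 3453 called higher 3331 were above 0. Both cell types went through the same instruments, and the peaks share their base composition. The MEF ratios come from the fit of the MEF samples and the mESC ratios from the joint fit of both cell types, each with its own scaling. The medians were -0.25 in MEFs and -0.18 in mESCs for high-CpG promoters, and 0.12 and 0.14 away from promoters. Being scaled apart, they give no direction between the cell types, and the share of peaks with the same sign also depends on the scaling. A difference in the ratio between cell types (the interaction of platform and cell type in edgeR, library as a block) was called at 44 of the 30,661 peaks (0.144%), 23 with a lower ratio in MEFs and 21 with a higher one, and 39 of the 44 were promoters. The split depended on the scaling and the libraries, with 42 lower and 13 higher with relative log expression (RLE) scaling in edgeR, 40 and 6 without MEF library 1 and 199 and 18 without MEF library 4. At an unadjusted p under 0.05 there were 2965. The count ran from 13 without mESC library 5 to 217 without MEF library 4, with 22 without MEF library 2 and 23 and 20 without mESC libraries 1 and 3. With all samples counted at the MEF peak positions, an alternative chosen after seeing the data, 4 were called, and without the block 0 were called (350 at an unadjusted p under 0.05). Among the peaks named above, Zfp652 (-1.26 in MEFs, -0.78 in mESCs) and Hmgb3 (-1.37 and -0.57) were in the set of 44.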

How the data were processed

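Omni-ATAC-seq libraries of MEFs (numbers 1, 2 and 4) and, for the last comparison, of mESCs (1, 3 and 5) were each read on both platforms. Per the study's methods, the authors trimmed adapters, aligned to GRCm38.p6/mm10 with Bowtie2, removed duplicates, mitochondrial reads and chromosome Y, and down-sampled each MEF sample to 60 M reads. Peaks were called per sample with MACS2 and merged over both platforms, so the peak list was itself drawn from the compared samples. The deposited tables hold raw counts of reads per peak, and the deposited per-sample peak files hold, among other columns, the fold enrichment at each summit, used here only for a check of the columns and for interval widths. Table columns without a platform name were taken as Illumina.

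Counts were fitted in edgeR 4.0.16 (R 4.3.3) by the quasi-likelihood test with TMM scaling, filterByExpr (which kept all peaks) and the terms library and platform, with Benjamini-Hochberg adjustment over all 61,891 peaks and a threshold of 0.05. The pairing comes from the study, which read the same reaction on both platforms, and same-library deviations correlated at r = 0.697, 0.618 and 0.837. Library sizes of 19,595,535 to 21,518,442 reads in peaks set the counting error. Per-peak CPM are TMM-normalized. GC content and CpG come from the RefSeq GRCm38.p6 sequence, genes and TSSs from GENCODE M21. For the 45 peaks on scaffolds no GC was computed. The GC offset removed each sample's smooth trend of log counts on GC content (6 spline degrees of freedom). The interaction of platform and cell type was fitted on matched peaks of both cell types. Scripts were tested on simulated data.

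Named peaks were the 10 lower and 10 higher with the lowest p among called peaks with 1 direction in all libraries and no overlap of CPM, the 10 with the largest ratios of at least 5 CPM, the highest promoter peak of each fibroblast, mesenchymal or marker gene, for each other list the 2 lowest p in each direction and the highest promoter peak, the lowest and highest ratio of each fibroblast locus, and the lowest p in each direction of each class; not all are printed. The members, gene lists and classes were chosen with earlier results of these data known. Alternatives were the fit without the block, other scalings, DESeq2 1.42.0, the GC offset, other count filters, TSS windows and peak lists, and leaving out each library. A few genes and sequences that meet these rules are not reported here.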

Additional observations from a re-analysis of the deposited data

Results flagged for a closer look

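The platform ratio differed between MEFs and mESCs at 44 of 30,661 matched peaks by edgeR's interaction term (adjusted p under 0.05, library as a block), 23 with a lower and 21 with a higher ratio in MEFs. With relative log expression scaling in edgeR the split was 42 and 13, without MEF library 1 40 and 6, and without MEF library 4 199 and 18. Promoters made up 22 of the 23 and 17 of the 21, against 17,685 of all 30,661 matched peaks, and 21 of the 23 and 6 of the 21 were in the highest GC decile, against 5556 of all. The Zfp652 promoter had a log2 ratio of -1.26 in MEFs and -0.78 in mESCs, a fitted MEF minus mESC difference of -0.41 (edgeR adjusted p = 0.00614). The Hmgb3 promoter was at -1.37 and -0.57, with a fitted difference of -0.72 (edgeR adjusted p = 0.0139). In each cell type the peaks were lower on BGI. Both cell types were counted at their own peak windows. The MEF ratios come from the fit of the MEF samples and the mESC ratios from the joint fit, each with its own scaling. The medians over matched peaks (near 0 in MEFs and 0.04 in mESCs) therefore give no direction between the cell types. For the same reason the fitted difference is not the plain difference of the printed ratios. With all samples counted at the MEF peak positions, an alternative chosen after seeing the data, edgeR called 4 peaks in place of 44, and the number at an unadjusted p under 0.05 went from 2965 to 2695. Without the block edgeR called 0, with 350 at an unadjusted p under 0.05.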

How the results depend on the processing

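Of 18,075 peaks called (9471 lower, 8604 higher), fits without the library pairing (no block) called 2514 (2448, 66), the GC offset 7887 (3995, 3892), DESeq2 with the block 6404 (5607, 797), DESeq2 without it 5915 (5397, 518) and a minimum ratio of 0.5 left 2545 (2139, 406). Leaving out 1 library gave 11,023 to 15,222 (7439 to 10,708 lower, 3477 to 4514 higher), with fewer samples in each fit. Other scalings, filters and the peaks of both platform lists gave counts within 1.5 times. Leaving out 1 library moved the medians to -0.16 to -0.11 in promoters, 0.088 to 0.12 elsewhere, -0.32 to -0.27 in high-CpG and 0.017 to 0.054 in low-CpG promoters, -0.11 to -0.026 in fibroblast identity, -0.41 to -0.37 in chromatin modifiers and -0.19 to -0.10 in histones. The median over all peaks, 0.07 in the full fit, moved as well, to 0.050 without library 1, 0.054 without library 2 and 0.020 without library 4. These moves are thus not by themselves particular to a class. The GC offset, which removes the GC trend by construction, gave -0.016 in promoters, 0.019 elsewhere, -0.014 in high-CpG and -0.013 in low-CpG promoters, 0.018 in the highest GC decile, -0.043 in chromatin modifiers, -0.21 in histones, 0.032 in matrix proteases and 0.00279 in solute carriers, and turned Col5a1 (0.060), Fn1 (0.16), Twist2 (0.045), Snai1 (0.19), Fosl2 (0.26), Skil (0.050), Ctnnb1 (0.00283) and Foxk2 (0.044). A 2 kb TSS window gave promoters -0.073. Fibroblast identity was -0.033 without TMM, -0.070 with equal library sizes, 0.10 with the highest peak of each gene and 0.024 with a 500 bp window; without TMM chromatin modifiers were -0.34 and histones -0.090. The interaction called 0 peaks by edgeR without the block (350 at an unadjusted p under 0.05), 13 to 217 with 1 library left out and 4 at MEF positions. Apart from the GC offset, the cause was not tested. Of 97 named peaks, 35 of 52 lower and 8 of 32 higher calls held without the block, and 35 and 19 with the GC offset. Counts near 212 to 231 per peak limit small ratios, and 3 libraries allow no test of a library that stands apart.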
